A study of Mus musculus with 4 samples.

Results

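The limb and trunk mesenchyme transcription factors Tbx15, Tbx5, Shox2, Prrx1, Prrx2, Meox2, En1, Twist1 and Twist2, 9 genes of 27597 named on the array, were described in stromal cells of mouse lymph nodes. They were found by gene name among its non-control probes, older synonyms included, which gave 18 of 41174 probes. The mesenteric node (mLN), into which lymph of the gut flows, was compared with the peripheral node (pLN). Each was taken in experiments 1 and 2, which gave 2 arrays per node. All cells came from wild-type C57BL/6NCrl mice and were CD45-negative, the cells left once leukocytes are removed with magnetic beads after collagenase digestion. They are named stromal cells in the title of the series and stem cells in its design text. The labels give no age, sex or treatment of the mice, and do not name the peripheral nodes or say how many animals were pooled. Separate animals in the 2 experiments are not stated either, and a p-value here covers the spread among the 4 samples alone. The genes were chosen because several of them differed between mLN and pLN on these arrays. Their differences between the nodes are therefore given as a description. Members that met the limma rule are counted, but nothing is read from such counts.

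T-box factors, homeobox factors and basic helix-loop-helix factors bind DNA and switch genes on or off. In the embryo, each body region carries its own combination of them. Limb buds and the dermis of the trunk arise from lateral plate and somitic mesoderm, whereas the stroma of the gut and its mesentery arises from splanchnic mesoderm. Fibroblasts of the adult often keep part of the transcription factor pattern of the place where they formed.

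All 4 arrays lay on 1 slide and were scanned once. The 75th percentile of the processed signal, a fluorescence intensity in arbitrary units, was 1686 to 1741, and 74.0% to 81.1% of the probes were well above background. The lowest signal well above background was 12.9 to 19.0, and no probe was saturated. All 10 fibroblast markers (among them Pdgfra, Col1a1 and Pdpn) were well above background in both nodes, and none of them passed limma's test between nodes (2 had an unadjusted p below 0.05). The leukocyte gene Ptprc, which encodes CD45, read 696 and 496 in pLN and 597 and 647 in mLN. Over all 21392 genes tested, the median log2 difference, mLN minus pLN, was −0.03, and 90% of the genes lay in the interval from −0.79 to 0.85 (5th to 95th percentile). With limma (lmFit and eBayes, Benjamini-Hochberg adjusted p below 0.05), 225 genes (1.05%) passed, of which 59 were lower and 166 higher in mLN. Such genes are referred to as called. An unadjusted p below 0.05 was reached by 3140 genes (14.7%) in the same fit.

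The first bases of 6 probes are shown because the results turn on Tbx15, Shox2, Twist1 and Twist2 and on how their probes differ. Each probe is 60 bases long and its first 30 bases, 5′ to 3′, are printed as in the array files.
Tbx15 A_51_P169659: agaatgaagagaatggttttatctccaagg
Tbx15 A_52_P232802: aagtgaaactgggtgcaagctaaaattttt
Tbx15 A_52_P648635: gcccagagaaactgagcgcgtctcaaagca
Shox2 A_52_P356698: agagctaagtgtagaaaacaggaaaatcaa
Twist1 A_52_P20906: atggtaacaatcagaggaattttaacacct
Twist2 A_51_P165504: ttattgagatattttaccagctaagtgact
The probes of related genes had little sequence in common over their whole length. The longest run of bases shared by a Twist1 and a Twist2 probe was 6 of 60, and it was 6 for Prrx1 and Prrx2, 7 for Tbx15 and its relative Tbx18, 7 for Tbx5 and Tbx4, 8 for Meox2 and Meox1, and 6 for En1 and En2.

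A probe met the signal rule if both arrays of mLN, or both of pLN, were well above background. This held for 16 of the 18 probes, and 15 of these 16 read lower on both mLN arrays than on both pLN arrays. The same held for 25.9% of the 31883 probes that met the rule. Twist2 was the exception. By gene, taking the brightest such probe of each, 7 of 8 members lay lower in mLN without overlap (25.0% of all genes tested), and 4 of 8 were at least 2-fold lower in both experiments (1.71%). None of the 8 was at least 2-fold higher in both (2.75%). The call rule for genes lower in mLN was met by 3 of 8 members, Tbx15, Shox2 and Twist1 (0.276% of all genes), and that for genes higher in mLN by 0 of 8 (0.776%). Since the genes were picked on this comparison, nothing is read from these counts. The median difference of the 8 members was −1.20, against −0.03 for all genes.

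**Figure D1:**
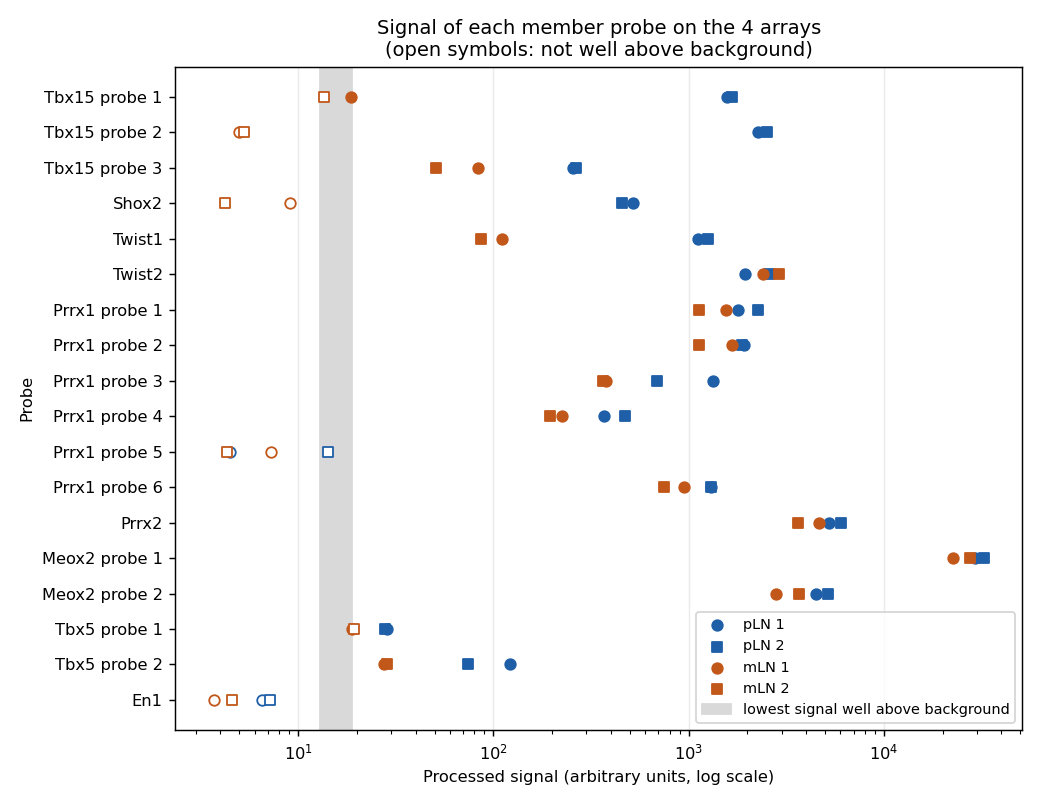
Processed signal (arbitrary units, log scale) of each of the 18 member probes on the 4 arrays, with pLN in blue, mLN in orange, circles for experiment 1, squares for experiment 2 and open symbols for signals not well above background. Tbx15 probes 1 to 3 are A_51_P169659, A_52_P232802 and A_52_P648635; the first of them read 1570 and 1672 in pLN and 18.7 and 13.6 in mLN, while Twist2 overlapped between the nodes.

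Tbx15, a T-box factor needed for the skeleton and for the pattern of coat colour between back and belly, read lower in mLN with all 3 of its probes. Probe A_51_P169659 (mm8, chr3:99482760-99482819, plus strand) read 1570 and 1672 in pLN, and 18.7 and 13.6 in mLN. Both pLN arrays were far above both mLN arrays, and only mLN 1 was well above background there. The measured log2 difference was −6.69 ± 0.21 (SE, 2 arrays per node), −6.40 in experiment 1 and −6.98 in experiment 2. With the mLN 2 signal raised to the lowest signal well above background on that array, the fold was 87.4.

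The neighbouring probe A_52_P232802 (chr3:99483039-99483098) read 2265.5 and 2514 in pLN and 5.0 and 5.3 in mLN, where neither array was well above background. On this probe pLN was at least 155-fold higher (127 to 189 with 1 array left out), a bound that sets the pLN mean against the lowest signal well above background on each mLN array. A bound does not take in the error of the pLN mean. The third probe, A_52_P648635 (chr3:99481467-99481526), behaved differently in size. It read 256 and 264 in pLN and 83.2 and 50.9 in mLN, all well above background, a difference of −2.02 ± 0.28 or 4.06-fold. The 3 probes thus had the same direction and no overlap between the nodes, but differed widely in the size of the change. With normexp, another background correction, A_52_P648635 turned to 0.35, while the other probes gave −2.53 and −3.15. Where a single value is given for Tbx15 below, it is that of A_51_P169659, the brightest of the 3 by mean log2 signal.

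Tbx5, a T-box factor that starts forelimb outgrowth and acts in the heart, was dim throughout. Probe A_52_P523712 (chr5:120144695-120144754) read 122 and 74.1 in pLN and 27.4 and 28.5 in mLN. The nodes did not overlap, and the pLN arrays were further apart than the mLN arrays. The difference was −1.79 ± 0.27, or 3.45-fold, with −2.16 in experiment 1 and −1.41 in experiment 2, and it turned to 0.95 with normexp. The other probe, A_51_P469338, whose coordinates (chr5:120132000-120143562) span 11563 bases, so that its 60 bases map to separate stretches of the genome, read 28.4 and 27.8 in pLN and 18.9 and 19.3 in mLN. All 4 of these signals lay close to the lowest signal well above background, and the probe was not well above background on mLN 2. Its difference was −0.58 ± 0.14, which turned to 1.64 with normexp.

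Shox2, a homeobox factor needed for the upper segment of the limb and for the sinoatrial node of the heart, was measured by 1 probe (mm8, minus strand, A_52_P356698, chr3:67063442-67063821, spanning 380 bases of the genome). It read 522 and 456 in pLN and 9.1 and 4.2 in mLN. Neither mLN array was well above background, and both pLN arrays were. The signal was at least 31.7-fold higher in pLN (26.0 to 38.5 with 1 array left out). The measured difference was −6.33 ± 0.41, with −5.85 in experiment 1 and −6.81 in experiment 2, values that rest on mLN signals below background.

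Prrx1, a paired-type homeobox factor that marks limb bud mesenchyme and is active in many adult fibroblasts, was present in both nodes. Its brightest probe, A_51_P209771 (mm8, minus strand, chr1:165084928-165084987), read 1800.5 and 2260 in pLN and 1557 and 1138 in mLN. All 4 signals were high, and the difference was −0.62 ± 0.24, with −0.22 in experiment 1 and −1.03 in experiment 2. The 5 Prrx1 probes that met the signal rule ranged from −1.40 ± 0.34 to −0.49 ± 0.24, and none of them overlapped between nodes. With normexp the probe A_52_P335587, at −1.01 here, turned to 0.05. The −1.40 belonged to A_51_P262972 (chr1:165089749-165089808), which the array files list under the separate transcript AK038736, and which read 1337 and 692 in pLN and 376 and 366 in mLN. The last of the 6 Prrx1 probes, listed under the transcript AK029347, was not well above background on any array, with signals of 4.3 to 14.3.

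Prrx2, the close relative of Prrx1 with which it shares roles in limb and skull, read 5250 and 6021 in pLN and 4640 and 3654 in mLN (A_51_P183746, chr2:30703082-30703142). The nodes did not overlap, and the difference was −0.47 ± 0.20, with −0.18 in experiment 1 and −0.76 in experiment 2. The log2 change of Prrx1 minus that of Prrx2 was −0.03 in experiment 1 and −0.27 in experiment 2.

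Meox2, a homeobox factor of somites and limb muscle precursors that also acts in vascular cells, was bright in both nodes. Probe A_51_P383001 (chr12:37689488-37689547) read 29476 and 32609 in pLN and 22618 and 27642 in mLN. Both mLN arrays lay below both pLN arrays by a small margin, a difference of −0.33 ± 0.18. The second probe, A_52_P326096, spans 10724 bases of the genome (chr12:37677696-37688419), and gave −0.61 ± 0.21 from 4477 and 5206 in pLN and 2807 and 3666 in mLN.

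En1, a homeobox factor of the ventral limb ectoderm, the midbrain and a lineage of dorsal dermal fibroblasts, was not well above background on any array. Its probe (A_51_P227386, chr1:122435036-122435095) sits in 10 spots per array, of which 1 on pLN 1 and 1 on mLN 2 were left out as outliers, and the mean of the others was 6.5 and 7.2 in pLN and 3.7 and 4.6 in mLN. These signals give no order between the nodes, and En1 was not tested.

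Twist1, a basic helix-loop-helix factor of head and limb mesenchyme, was well above background in both nodes but much lower in mLN. Its probe (A_52_P20906, chr12:34544793-34544852) read 1124 and 1261 in pLN and 111 and 86.0 in mLN. The 2 arrays of a node lay close together and the nodes far apart. The difference was −3.63 ± 0.20, or 12.4-fold, with −3.35 in experiment 1 and −3.91 in experiment 2, at rank 34 of 21392 when differences are ordered from the lowest.

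Twist2, its nearest relative and a factor of the dermis, did not show this. It read 1951 and 2574 in pLN and 2413 and 2902 in mLN (A_51_P165504, chr1:93678348-93678406). The nodes overlapped, and the difference was 0.22 ± 0.22, with 0.30 in experiment 1 and 0.14 in experiment 2. The log2 change of Twist1 minus that of Twist2 was −3.65 in experiment 1 and −4.05 in experiment 2. In samples of many cells such as these, fewer cells of a type in mLN and less of the RNA per cell cannot be told apart, for Twist1 or for any other member.

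**Figure D2:**
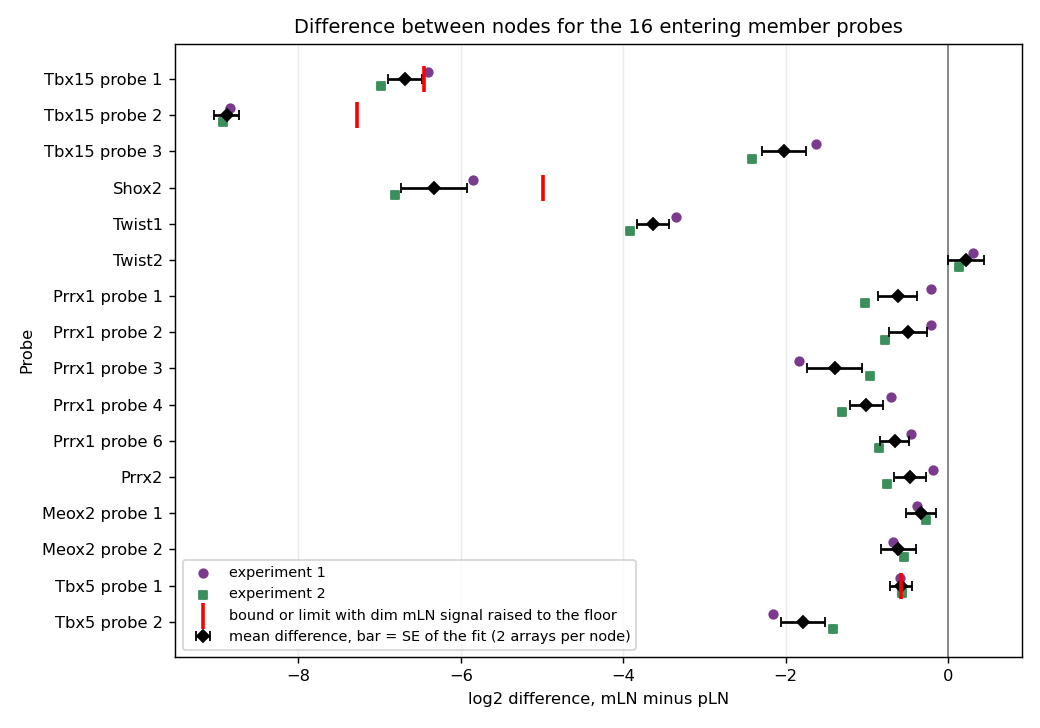
Log2 difference, mLN minus pLN, of the 16 member probes that met the signal rule: diamonds and bars are the mean and its standard error (2 arrays per node), circles and squares are experiments 1 and 2, and red ticks mark bounds or limits where mLN was not well above background. Of these probes, 15 lie below 0 in both experiments, and the Twist2 probe lies above 0 in both.

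A contrast that the choice of the genes did not use was experiment 2 against experiment 1, with the node as a covariate. It gives the mean shift over both nodes, so opposite shifts in the 2 nodes cancel. It thus does not measure the full spread between repeats. The Prrx1 probe A_51_P209771, for example, moved by 0.37 in pLN and −0.44 in mLN, and its mean shift was −0.04. The mean shifts of the members ran from −0.64 (Shox2) to 0.36 (Twist2). None of the 8 reached an unadjusted p of 0.05 in limma, where 1947 of 21392 genes (9.10%) did. No gene was called there (0 of 21392, 0.00%) with the same settings, whereas 44 were called when the prior variance was allowed to follow the signal. For 9 of the 16 probes, experiment 2 was higher than experiment 1 in one node and lower in the other. The share over all probes was not counted, so nothing is read from this.

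Genes related to the members by family, by place of action or by pathway were then counted. They were listed by gene family and textbook role, not by how they moved, although earlier results of these data were known. Among 15 other T-box genes, 8 were tested and 0 were called by limma. At an unadjusted p below 0.05, 1 was higher and 1 lower (14.7% of all genes in either direction). Their median difference was −0.12. Tbx18, a T-box factor of somites, epicardium and limb that is closest to Tbx15, read 653 and 988 in pLN and 235 and 76.9 in mLN. It lay lower in mLN without overlap, by −2.60 ± 0.60 (limma adjusted p 0.168). The mLN arrays of Tbx18 lay apart, and the difference was −3.40 without mLN 1 and −1.80 without mLN 2. Tbx3, the neighbour of Tbx5 on the chromosome and a factor of limb and mammary buds, differed by −0.39 ± 0.19 (limma adjusted p 0.455). Tbx1, known from the pharyngeal arches, differed by −0.81 ± 0.34 (0.397 by the same test), and the dim Tbx6, a factor of early somite mesoderm, by 0.71 ± 0.15 (0.142).

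Of 42 other transcription factors of limb, somite and dermis, 32 were tested, 1 was called higher and 2 lower by limma in mLN, and the median was −0.12. Runx2, which drives bone formation, read 66.8 and 77.0 in pLN and 25.9 and 27.3 in mLN, a difference of −1.45 ± 0.16. It lay at the edge of the threshold (limma adjusted p 0.04995) and was not called when experiments were blocked (0.0534), with quantile normalization (0.0838), a variance trend (0.0699), the mean of probes (0.108) or no filter (0.136). Of its other probes, A_51_P230942 gave −1.61 and A_52_P55876, close to background, 0.03. Emx2, a homeobox factor of the shoulder blade and the urogenital tract, was not called by the probe that stood for it. That probe, the brighter by mean log2 signal, gave −1.47 ± 0.19 (limma adjusted p 0.0693). The other Emx2 probe read 165 and 145 in pLN and 3.0 and 4.9 in mLN, where it was not well above background. In the fit by probe it gave −5.35 (limma adjusted p 0.0146), a size that rests on mLN signals below background. Emx2 was called with median scaling (0.0418), quantile normalization (0.0405), the mean of probes (0.0114) and the deposited value table (0.00689). It was not called with a variance trend (0.0791), the block (0.0540) or no filter (0.171). Meis1, a homeobox factor of the proximal limb, went the other way, from 315 and 303 in pLN to 1230 and 1445 in mLN (2.09 ± 0.16, limma adjusted p 0.0197). The list as a whole thus held genes in both directions, and most of the tested genes were not called.

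For contrast, transcription factors of visceral mesoderm were listed. Of 18 such genes, 16 were tested, and 7 were called higher and 0 lower in mLN by limma, with a median of 3.08. The 7 were Bnc1, Isl1, Gata5, Wt1, Nkx2-3, Hand1 and Tcf21. The other 9 were not called, among them Nkx2-5 at −0.08 and Gata4 at 0.04. Tcf21, a basic helix-loop-helix factor of visceral mesenchyme, was measured on all arrays and read 44.8 and 21.2 in pLN and 4322 and 2145 in mLN, 97.2-fold higher (6.60 ± 0.51, limma adjusted p 0.0214). Wt1, a factor of mesothelium and kidney, was at least 72.8-fold higher in mLN, and Hand1, a factor of lateral mesoderm and heart, at least 4.38-fold. Bnc1 is also in the mesothelial marker list described further on.

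**Figure D3:**
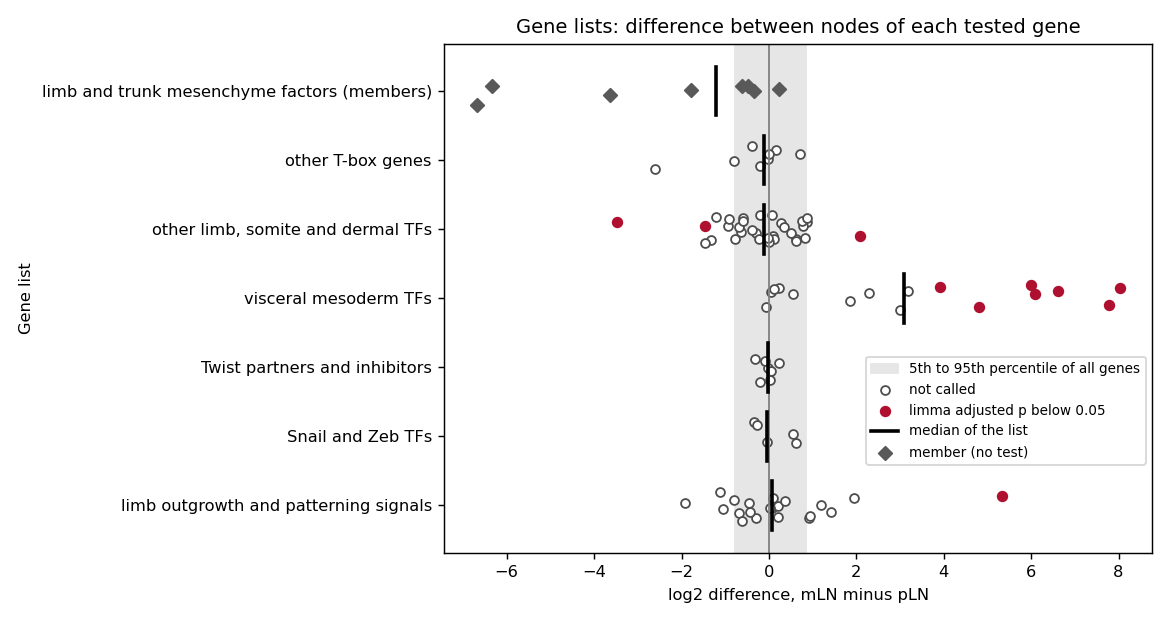
Log2 difference, mLN minus pLN, of every tested gene of 7 lists: grey diamonds are the members, which were chosen on this difference, red dots are genes with a limma adjusted p below 0.05, open circles are other genes, black bars are list medians and the grey band is the 5th to 95th percentile of all genes. The members have a median of −1.20 and the visceral mesoderm factors a median of 3.08, while the medians of the other 5 lists lie between −0.12 and 0.08. Of the 16 tested visceral mesoderm factors, 8 were well above background on both pLN arrays.

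Twist factors bind E-boxes as dimers with E proteins, and Id proteins take E proteins away from them. All 7 such genes (Tcf3, Tcf4, Tcf12 and Id1 to Id4) were tested. By limma 0 were called and 0 had an unadjusted p below 0.05, against 14.7% of all genes. Their differences ran from −0.31 (Tcf4) to 0.24 (Id4). The Snail and Zeb factors, which act beside Twist1 when epithelia turn into mesenchyme, gave 0 called of 5 by limma as well, and 0 at an unadjusted p below 0.05. Snai2 differed by 0.63 ± 0.28 (limma adjusted p 0.431), Zeb2 by 0.54, Snai1 by −0.34 and Zeb1 by −0.27. The 12.4-fold difference of Twist1 thus stood beside small differences in these genes.

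Limb outgrowth depends on signals between ectoderm and mesenchyme, above all fibroblast growth factors, Sonic hedgehog, Wnts and bone morphogenetic proteins. Of 25 such genes, 21 were tested, 1 was called higher and 0 lower in mLN by limma, and the median was 0.08. Fgf9 was the one called, with 30.1 and 24.8 in pLN and 1287 and 981 in mLN (5.34 ± 0.20, limma adjusted p 0.00759). Fgf10, the mesenchymal signal that starts the limb bud and acts downstream of Tbx5 there, read 2985 and 1684 in pLN and 722 and 499 in mLN. Its difference of −1.92 ± 0.35 was not called (limma adjusted p 0.120), but was with the experiment as a block (0.0364). Wnt5a differed by 1.41 ± 0.16 (limma adjusted p 0.0512) and Bmp7 by 1.94 ± 0.38 (0.134).

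The protein-coding genes next to each member on the chromosome, 1 on each side by the order of RefSeq genes, gave 18 genes, of which 15 were tested. By limma 1 was called, Marco beside En1, a scavenger receptor gene (3.28 ± 0.15, adjusted p 0.0108). Veph1 beside Shox2 read 16.6 and 6.5 in pLN and 95.9 and 21.4 in mLN, all dim, and was higher in mLN by 2.10 ± 0.86 without being called (limma adjusted p 0.386). Ptges beside Prrx2, a prostaglandin synthase gene, was higher by 1.19 ± 0.14 (limma adjusted p 0.0525). Wars2 beside Tbx15 differed by −0.13 ± 0.14, Mlf1 beside Shox2 by −0.44 ± 0.21 and Hdac9 beside Twist1 by 0.12 ± 0.40. The signals of Spag17 and Ferd3l, on the other sides of Tbx15 and Twist1, did not meet the signal rule in either node.

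The genes whose pattern over the 4 arrays was nearest to that of Tbx15 and Shox2 were found by Euclidean distance between log2 signals, each first raised to the array's lowest signal well above background and centred on its mean. For Tbx15 they were Areg, an epidermal growth factor receptor ligand, at a distance of 0.82, Csn3, a milk protein, at 1.16, and the chemokine Cxcl15 at 1.32. For Shox2 they were Cxcl15 at 0.35, Cyp2f2, a cytochrome P450, at 0.75, and Arg2, an arginase, at 0.76. All 5 of these genes were lower in mLN, which follows from choosing them by nearness to Tbx15 and Shox2. The distance rests on 4 arrays, 2 per node.

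Summed marker signals of several other cell types that a lymph node preparation can hold also differed between the nodes. Each sum is weighted to its brightest markers. The summed signal of 10 mammary and glandular epithelial markers was 20730 to 32527 in pLN and 9761 to 14025 in mLN, that of the 5 tested of 6 melanocyte markers 1758 to 2093 and 535 to 730, and that of 6 blood endothelial markers 146214 to 165131 and 103642 to 117278. All 3 sums were higher on both pLN arrays. The melanocyte sum was led by Mlana, which read 1157 and 942 in pLN and 65.1 and 31.0 in mLN. Mlana was the only melanocyte marker called. Of the others tested, Mitf differed by −0.88, Dct by −0.66, Tyr by −0.07 and Pmel by 0.22. Within the mammary list, Csn3 and Wfdc2 were called lower in mLN, whereas Csn2, another milk protein gene, was called higher, from 60 and 52.1 in pLN to 1179 and 1153 in mLN (4.36 ± 0.14, limma adjusted p 0.00697). Mesothelial markers went the other way, with 7847 to 10095 in pLN and 60849 to 83427 in mLN, and 6 of 7 were called higher in mLN by limma. The sums of the fibroblast markers lay at 1501990 to 1504747 in pLN and 1676490 to 1802872 in mLN. Sums were also higher on both mLN arrays for lymphatic endothelium (397733 to 477348 and 501910 to 600631), pericytes and smooth muscle (117475 to 132644 and 165866 to 174371), skeletal muscle (9256 to 9443 and 13619 to 14677) and Schwann cells (2893 to 3293 and 4184 to 4297). None of these markers was called by limma, and the list medians were −0.13, 0.22, −0.04 and 0.06 in that order. In the lymphatic list, Lyve1 (1.04), Reln (0.87) and Ccl21c (0.36) were higher in mLN, but Prox1 (−0.85), Flt4 (−0.62) and Mmrn1 (−0.87) lower. Acta1 alone read 8389 and 8504 in pLN and 13850 and 12747 in mLN. The sums of keratinocyte, fibroblastic reticular cell, leukocyte, cartilage and bone, and adipocyte markers overlapped between the nodes. The part of any of these cell types in the differences of the members was not tested.

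**Figure D4:**
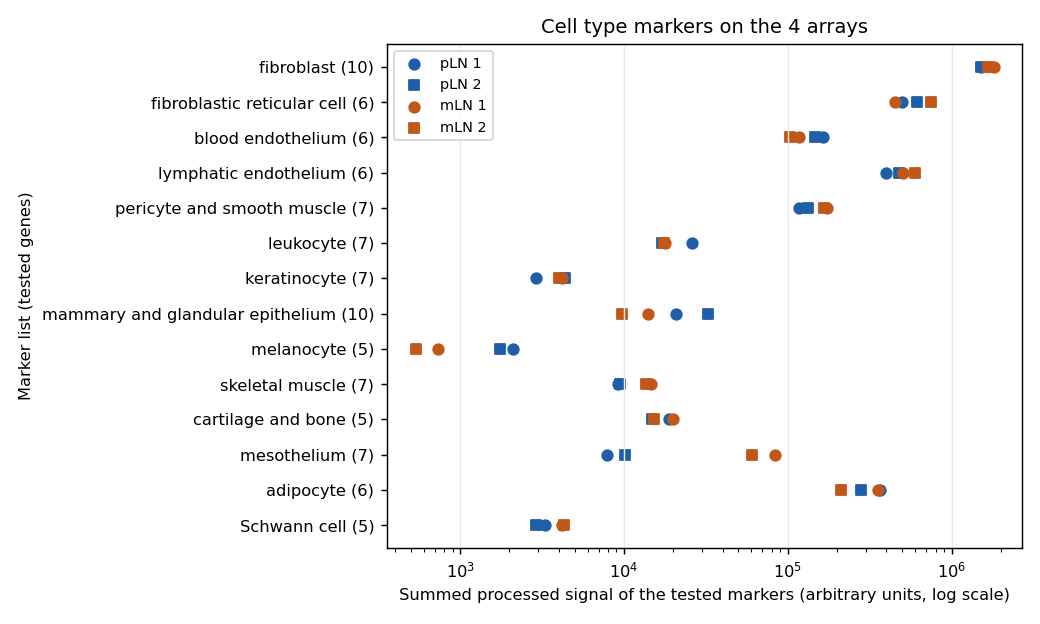
Summed processed signal (arbitrary units, log scale) of the tested markers of 14 cell types on the 4 arrays, with pLN in blue, mLN in orange, circles for experiment 1 and squares for experiment 2. Mammary, melanocyte and blood endothelial sums are higher in both pLN arrays, mesothelial (60849 to 83427 against 7847 to 10095), fibroblast, lymphatic, pericyte, skeletal muscle and Schwann cell sums are higher in both mLN arrays, and the other sums overlap.

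The sequences before the start sites of 3 members are shown because Twist1 and Twist2 are close relatives that changed unequally and Shox2 was not well above background in mLN. Each is the 250 bases before the start, 5′ to 3′ on the gene's strand, from RefSeq on GRCm38.p6. Capitals mark TATAAA or TTTATA and CCAAT or ATTGG, motifs added after the sequences had been seen.
Shox2 (chr3:66981772-66982021, minus strand): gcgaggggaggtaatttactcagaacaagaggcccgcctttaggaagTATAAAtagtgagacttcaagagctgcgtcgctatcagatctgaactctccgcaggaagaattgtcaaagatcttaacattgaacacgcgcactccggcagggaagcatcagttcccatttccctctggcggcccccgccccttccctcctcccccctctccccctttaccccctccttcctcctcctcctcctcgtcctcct
Twist1 (chr12:33957421-33957670, plus strand): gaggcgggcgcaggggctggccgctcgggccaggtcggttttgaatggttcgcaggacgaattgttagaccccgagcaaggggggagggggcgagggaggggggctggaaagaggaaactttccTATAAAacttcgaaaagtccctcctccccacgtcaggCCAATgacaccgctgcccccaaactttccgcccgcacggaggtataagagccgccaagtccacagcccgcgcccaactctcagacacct
Twist2 (chr1:91801211-91801460, plus strand): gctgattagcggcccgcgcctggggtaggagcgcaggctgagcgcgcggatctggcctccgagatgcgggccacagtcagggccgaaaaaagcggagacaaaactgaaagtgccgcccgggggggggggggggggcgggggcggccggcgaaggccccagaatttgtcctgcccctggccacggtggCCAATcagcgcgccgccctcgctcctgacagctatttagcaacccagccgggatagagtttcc
RefSeq promoters were matched for 7 of 9 members. The motif TATAAA, read on both strands, was in 1 place each in the windows of Shox2, Twist1 and Meox2 and in 12.4% of all 32851 promoter windows of this length. CCAAT, on both strands, was in those of Twist1, Twist2 and En1, and in 33.8% of all. The E-box CANNTG, which reads the same on both strands in its fixed letters, was in the windows of Meox2 and En1 and in 66.2% of all. The T-box motif TCACACC, on both strands, was in none of the 7 and in 3.33% of all, and the homeodomain site TAATTA was in that of Prrx1 and in 4.84% of all. Such matches are descriptions of letters in these windows and were not set against the differences.

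With pLN 1 or pLN 2 left out, 0 of 21392 genes passed limma's test (1877 and 2297 at an unadjusted p below 0.05), so none of the calls named here remained. With normexp background correction 0 passed as well (569 at an unadjusted p below 0.05), and the differences were −2.53 for Tbx15, −1.22 for Shox2 and −1.68 for Twist1. With each of the 4 arrays left out in turn, Tbx15 ranged from −6.91 to −6.47, Shox2 from −6.89 to −5.77, and Twist1 from −3.81 to −3.45.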

How the data were processed

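RNA of CD45-negative cells from mLN and pLN was measured on 4 one-colour Agilent arrays. Per the file headers, Agilent Feature Extraction 9.5.3.1 produced the deposited intensity values, which are processed signals with the background subtracted. A value table of intensities was deposited beside them. Its values above 15 are the probe's signal times 1 factor per array (0.862 to 0.890; at least 99.8% within 1%), and 8547 to 9661 probes per array stand at 15, its lowest value. Column medians were 161 to 172. Its scale is linear, its rows are not centred, and it was used only as an alternative.

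Control spots and spots marked as outliers were dropped, the remaining spots averaged by probe, log2 taken and each array's 75th percentile subtracted. A probe counted as well above background if at least 0.5 of its spots were. It entered if this held on both arrays of at least 1 node, as for 31883 of 41174 probes, and the brightest such probe, by mean log2 signal, stood for each of 21392 genes. The number of arrays limits the precision. Probes were named through RefSeq accessions (24375), symbols (6301) or synonyms (2426), and 8072 kept the files' name. Probe positions are the files' own, on mm8, and exon or UTR annotation on mm8 was not used here.

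limma 3.58.1 in R 4.3.3 compared 2 mLN with 2 pLN arrays, with Benjamini-Hochberg adjustment over all genes and a threshold of 0.05. An exact permutation of 2 against 2 cannot go below 0.333. The prior had 2.35 degrees of freedom. Experiments are numbered in the labels and called independent in the design text, so the numbers were taken to pair the samples (r = 0.246 across genes between the deviations of same-numbered arrays). The fit with that block is given where it changed a call. The limma fit was tested on simulated data. A gene that was not called is not shown to be equal in both nodes. Alternatives were background, scaling, filter, probe rule, variance trend, deposited table, block and single arrays left out.

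The members, gene lists and named genes were chosen with earlier results of these data known. Named were all members, and of each list the called genes and up to 4 genes with the smallest p, except 1 gene that is not reported here. For Tbx15 and Shox2 the 3 nearest genes were named, as were neighbours that were called, differed by at least 1 or lie beside Tbx15, Shox2 or Twist1.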

Additional observations from a re-analysis of the deposited data

Results flagged for a closer look

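Member probes that met the signal rule and the named genes of the related lists were checked for opposite directions in the 2 experiments. Id1, an inhibitor of E proteins, was singled out because mLN lay above pLN in one experiment and below it in the other. It had a log2 difference, mLN minus pLN, of 0.04 in experiment 1 and −0.23 in experiment 2. Neighbours and markers were outside this check. Hdac9 beside Twist1, for example, had −0.14 in experiment 1 and 0.38 in experiment 2. Each value rests on 1 array per node, and the difference between the experiments was not tested.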

How the results depend on the processing

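With normexp background correction, 0 genes, 0 members, 0 member probes and 0 genes of the related lists were called, against 225, 3, 4 and 11, and the median of all genes shifted by 0.29. Under that correction the differences of Tbx5 (0.95), Runx2 (0.97), Emx2 (0.17), Wars2 (0.46) and Mlf1 (0.21) changed sign, as did 3 member probes that do not stand for their gene; the cause was not tested. Median scaling called 354 genes, an intensity trend in the variance 441 (and 44 genes between experiments, against 0), and no filter on dim probes 44 genes, 2 member probes and 7 list genes. With probes required to be well above background on all 4 arrays, 1 member, 1 member probe and 7 list genes were called. That rule leaves out genes below background in either node, such as Shox2 in mLN and Bnc1 in pLN. Tbx15 was then represented by A_52_P648635, at −2.02, and was not called. With single arrays left out, 0 to 190 genes, 0 to 3 members, 0 to 4 member probes and 0 to 10 list genes were called. Twist2 then ranged from −0.0017 to 0.44, Id4 from −0.11 to 0.59 and Hdac9 from −0.38 to 0.62, and with the mean of probes Tcf12 was 0.0715. The fit of experiment 2 against experiment 1 with an array left out was not run, since it leaves no residual degrees of freedom. With the replicate block, pairing by experiment, 333 genes, 3 members and 12 list genes were called, and among the named genes the block changed the call of Runx2 and Fgf10 alone. In all, 586 values were recomputed for 46 named genes, of which 11 changed sign, 80 kept their sign but lost a call and 15 gained one. Near the lowest signals, as for Tbx5, Tbx6 and the mLN values of Tbx15 and Shox2, the order of arrays is limited by background. Higher calls made up 73.8% of all calls, and 71.5% to 75.7% under other scalings.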
